A study of Mus musculus with 5 samples.

Results

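A set of 6 transcription regulator genes whose RNA level differs between subtypes of auditory neurons were followed through a loss of Runx1, itself a transcription factor. They are Pou4f1, Rxrg, Casz1, Mef2c, Zbtb20 and Eya1, 6 of the 14715 genes in the deposited matrix. They were chosen by their levels in the neuron classes of these same cells, which differed, so their class levels are a description and carry no test. Neurons were isolated from the cochlea of mice of both sexes, aged 30 to 33 days after birth, sorted for the red reporter tdTomato and sequenced as single cells. The 2 control samples carried bhlhb5-Cre/+ and Ai14/+, the reporter that Cre switches on. The 3 CKO samples carried bhlhb5-Cre/+, Ai14/+ and Runx1F/F, a floxed Runx1 allele in both copies, so that Runx1 was removed in the embryo wherever bhlhb5-Cre was active. Every cell of both genotypes therefore comes from a Cre-carrying animal.

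Spiral ganglion neurons carry sound signals from hair cells to the brainstem. Type I neurons contact inner hair cells and are commonly divided into the subtypes Ia, Ib and Ic, which differ in calcium-binding proteins and in firing properties, whereas the rarer type II neurons contact outer hair cells. Transcription factors bind DNA and set which genes a neuron uses, and several of them act together to fix and hold a subtype. POU4F1 is a POU homeodomain factor of sensory neurons, RXRG is a retinoid X receptor that pairs with other nuclear receptors, and CASZ1 is a zinc finger factor. MEF2C is a MADS box factor whose activity responds to calcium signals, ZBTB20 is a zinc finger factor known mainly as a repressor, and EYA1 is a coactivator and phosphatase that acts in the early ear.

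The matrix held 1954 neurons, 1070 control and 884 CKO, with 10379 to 100856 unique molecular identifiers (UMIs, 1 per captured RNA molecule) each. Levels are mean UMIs per 10000 UMIs of a cell, and the deposited record gives a cell's genotype but not its sample. Each genotype is thus 1 pool without replicates, no test between genotypes could be made, and intervals are exact 95% intervals that cover counting error only. Column order splits the cells into 5 stretches of sorted barcodes, stretches 1, 3 and 4 with CKO and 2 and 5 with control cells, as many as there were libraries, although no source used here ties them to libraries. Classes were set by gates in a fixed order: Dupd1 at 1 or more gave class II, then Lypd1 at 3 or more gave Ic, then Calb2 at 150 or more gave Ia, and the rest were Ib. This gave 242 Ia, 395 Ib, 314 Ic and 119 II neurons in control, and 384, 216, 132 and 152 in CKO. The gates are ranges of a level and not cell types: 51 control and 89 CKO neurons lay at Calb2 levels of 100 to 150, just under the Ia gate, and 52 and 105 at 150 to 200, just above it. In control, the following genes outside the gates, taken from a longer list of class markers, went with the class names. B3gat1 stood at 2.02 in Ia against 0.693 in Ib and 0.082 in Ic. Ttn stood at 1.27 in Ib against 0.0528 and 0.209 in Ia and Ic. Grm8 stood at 0.817 in Ic against 0 in Ia and 0.0304 in Ib, and Th at 5.09 in II. In CKO these separations were smaller for B3gat1, which stood at 2.11, 1.48 and 1.04 in Ia, Ib and Ic, and for the Ib marker Calb1, which stood at 1.90, 2.56 and 1.46. The gate genes themselves differed between the genotypes in type I neurons, Calb2 with 90.7 in control and 154 in CKO and Lypd1 with 11.9 and 5.20, so a class in CKO need not hold the cells it holds in control. CKO stretch 4 stood apart from CKO stretches 1 and 3: its type I neurons were 14.2% Ia and 41.8% Ic, against 56.2% and 65.8% Ia and 16.2% and 9.3% Ic there, and against 12.7% and 35.1% Ia in the control stretches. Runx1 RNA does not check the deletion, because reads come from 3′ ends of transcripts and no label names the floxed exons. Its mean was 1.73 in control and 2.36 in CKO class Ib, and 0.223 and 1.65 in class Ia.

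In control neurons Pou4f1 and Rxrg marked opposite ends of the type I range. Pou4f1 (minus strand of GRCm38 chr14:104461676-104467999) averaged 1.17 (1.11 to 1.24) in class Ic, 0.162 (0.142 to 0.184) in Ib and 0.00851 (0.00368 to 0.0168) in Ia. The class Ic means of the control stretches were 1.19 and 1.14, those of Ib 0.221 and 0.116, and those of Ia 0.0243 and 0.00419, so the order Ic, Ib, Ia held in both without overlap. In class II it averaged 0.00572, from 2 UMIs in 119 neurons, and in Ia 8 UMIs were seen in 242 neurons. Rxrg (plus strand of chr1:167598384-167639623) ran the other way, with 0.507 (0.466 to 0.551) in Ia, 0.113 (0.0957 to 0.133) in Ib and 0.00706 (0.00229 to 0.0165) in Ic, the last from 5 UMIs in 314 neurons. Class II held Rxrg at 0.565 (0.483 to 0.657), a level that overlapped that of Ia: the stretch means were 0.437 and 0.761 in II, and 0.675 and 0.461 in Ia. Rxrg was therefore shared by the Calb2-high type I neurons and the type II neurons, which had almost no Pou4f1.

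The other 4 genes were graded over the classes. Casz1 (plus strand of chr4:148804429-148954889) was highest in class Ib at 0.747 (0.704 to 0.793), followed by Ia at 0.514 and Ic at 0.235, with stretch means of 0.619 and 0.847 in Ib against 0.246 and 0.219 in Ic. Class II had Casz1 at 0.0263 (0.0114 to 0.0519), from 8 UMIs, so type II neurons held little of either Casz1 or Pou4f1. Mef2c (plus strand of chr13:83504034-83667080) was graded along the type I classes, from 0.281 (0.251 to 0.313) in Ia to 0.548 in Ib and 0.771 (0.721 to 0.823) in Ic, and class II stood at 0.738. Its stretch means were 0.18 and 0.308 in Ia and 0.757 and 0.791 in Ic, and the classes did not overlap. Eya1 (minus strand of chr1:14168954-14310235) averaged 0.699 in Ic, 0.423 in Ia and 0.410 in Ib, and Ia and Ib were not ordered the same way in both stretches, with 0.468 and 0.411 in Ia and 0.380 and 0.433 in Ib. Zbtb20 (plus strand of chr16:42875881-43642602) was the least graded, with 0.521 in Ib, 0.492 in Ia, 0.384 in Ic and 0.322 in II. Its stretch means overlapped between classes, at 0.388 and 0.521 in Ia and 0.378 and 0.393 in Ic. The pseudogene BC002163, which lies within the span of Zbtb20 on the same strand, was counted as its own gene, at 0.583 over all neurons. Whether reads of the pseudogene were also counted for Zbtb20 was not tested. Between control Ia and Ic, 5 of the 6 genes were at least 1.5-fold apart on the scale log2(mean + 0.1), where 6.76% of all genes at a mean of 0.2 or more were, but this is what the genes were picked for.

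**Figure D1:**
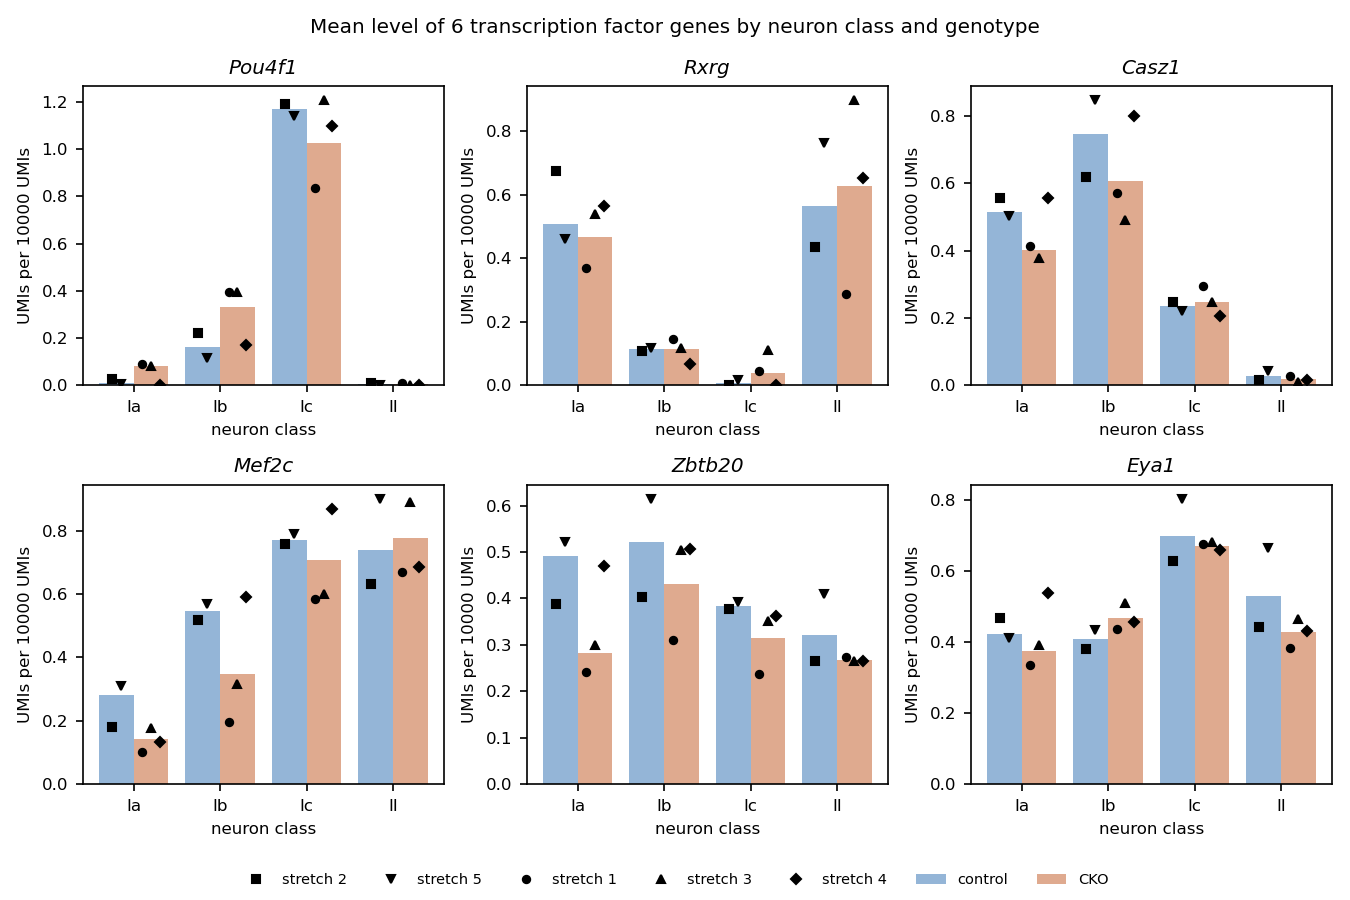
Mean level (UMIs per 10000 UMIs of a cell, vertical axis from 0) of the 6 genes in neuron classes Ia, Ib, Ic and II. Bars are the pooled means of control (blue) and CKO (orange), and black symbols the means of the 5 barcode stretches: Pou4f1 is highest in class Ic (1.17 in control) and Rxrg in classes Ia and II (0.507 and 0.565).

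Sequences around annotated start sites of these genes were taken from the RefSeq promoter windows of GRCm38.p6. They run from 250 bases before to 50 after a start site, which gave 9 windows for 5 of the 6 genes. They were searched on both strands for the letters TGTGGT (reverse ACCACA), the core that Runx proteins bind, and AGGTCA (reverse TGACCT), the core that nuclear receptors such as RXRG bind, and the letters found are in capitals. The Pou4f1 window, the 2 Rxrg windows and the Zbtb20 window are shown because Pou4f1 and Rxrg carry the contrast between the classes and because only the Zbtb20 window held the Runx letters.
Pou4f1, chr14:104467950-104468249, minus strand: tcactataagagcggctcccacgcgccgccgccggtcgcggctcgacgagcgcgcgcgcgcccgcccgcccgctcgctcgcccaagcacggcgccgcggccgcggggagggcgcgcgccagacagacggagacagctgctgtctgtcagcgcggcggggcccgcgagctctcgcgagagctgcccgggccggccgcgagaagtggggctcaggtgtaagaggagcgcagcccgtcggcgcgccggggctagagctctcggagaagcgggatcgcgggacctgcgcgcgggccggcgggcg
Rxrg window 1, chr1:167598112-167598411, plus strand: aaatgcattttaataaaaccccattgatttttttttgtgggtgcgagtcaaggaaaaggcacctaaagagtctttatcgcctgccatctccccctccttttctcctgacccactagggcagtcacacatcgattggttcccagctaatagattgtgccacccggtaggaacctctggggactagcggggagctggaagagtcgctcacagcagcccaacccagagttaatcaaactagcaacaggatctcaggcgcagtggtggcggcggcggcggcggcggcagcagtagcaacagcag
Rxrg window 2, chr1:167618015-167618314, plus strand: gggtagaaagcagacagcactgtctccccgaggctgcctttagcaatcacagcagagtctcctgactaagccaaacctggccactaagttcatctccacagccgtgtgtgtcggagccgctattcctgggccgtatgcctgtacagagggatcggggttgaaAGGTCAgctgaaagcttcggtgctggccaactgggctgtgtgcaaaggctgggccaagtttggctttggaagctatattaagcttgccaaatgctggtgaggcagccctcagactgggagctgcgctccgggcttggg
Zbtb20, chr16:43247034-43247333, plus strand: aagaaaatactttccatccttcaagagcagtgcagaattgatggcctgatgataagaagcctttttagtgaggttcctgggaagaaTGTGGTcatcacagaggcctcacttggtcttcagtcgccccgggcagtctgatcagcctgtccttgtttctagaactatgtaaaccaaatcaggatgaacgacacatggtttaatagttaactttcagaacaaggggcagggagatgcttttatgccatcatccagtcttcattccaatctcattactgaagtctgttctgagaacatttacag
The Runx letters lay 164 bases before the Zbtb20 start site and in none of the other 8 windows, while 12.1% of the 14127 windows of genes in the matrix held them. The nuclear receptor letters lay 88 bases before the start site of Rxrg window 2, 73 before that of a Casz1 window, 237 before that of a Mef2c window, and 116 and 72 before that of another Mef2c window. Among windows of genes in the matrix 12.7% held these letters. Every window that held either set of letters lay inside the span of its gene, at an internal start. The windows at the first base of a gene's span held neither, and for Zbtb20 there was no such window. A match is a match of letters only, and the windows cover only the bases next to annotated starts.

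Over all type I neurons, Mef2c was the member with the largest difference between the genotypes. It averaged 0.554 (0.530 to 0.578) in control and 0.304 (0.285 to 0.324) in CKO, log2 -0.69 and a ratio of summed UMIs of 0.546 (0.505 to 0.590). The stretch means were 0.584 and 0.531 in control and 0.206, 0.25 and 0.642 in CKO, so CKO stretches 1 and 3 lay below both control stretches and stretch 4 above them. Without stretch 4 the log2 value was -0.99. Mef2c was the 1 member of 6 at least 1.5-fold apart, where 1.05% of the 6566 genes at a mean of 0.2 or more were, and the median was -0.30 over the 6 members and -0.04 over all these genes. Rxrg was higher in CKO, 0.285 (0.267 to 0.303) against 0.178 (0.165 to 0.192), log2 0.47, with stretch means of 0.254, 0.394 and 0.109 in CKO and 0.131 and 0.214 in control. Without stretch 4 Rxrg stood at 0.61, which made 2 members past 1.5-fold beside 1.75% of genes. Pou4f1 was lower, 0.325 (0.306 to 0.345) against 0.456 (0.434 to 0.479), log2 -0.39, but its stretches overlapped, with 0.294, 0.263 and 0.534 in CKO and 0.635 and 0.321 in control. Zbtb20 was lower at 0.332 against 0.469 (log2 -0.40), Casz1 at 0.435 against 0.519 (-0.21) and Eya1 at 0.455 against 0.509 (-0.13). Leaving out CKO stretch 1 or 3 brought Mef2c to -0.47 and -0.57, under 1.5-fold, and leaving out control stretch 2 brought Pou4f1 to 0.013. Leaving out control stretch 5 put 3 members past 1.5-fold, Pou4f1 at -0.79, Mef2c at -0.76 and Rxrg at 0.73.

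These pooled differences depended on how the classes were weighted. Because the gate genes differed between the genotypes, a shift in class shares and a change inside a class cannot be told apart here. With the classes Ia, Ib and Ic weighted equally, the log2 difference of Rxrg went from 0.47 to -0.014 and that of Pou4f1 from -0.39 to 0.082, that of Mef2c from -0.69 to -0.35, and that of Eya1 from -0.13 to -0.015. Zbtb20 and Casz1 hardly moved, from -0.40 to -0.35 and -0.21 to -0.21, so that Mef2c and Zbtb20 then stood level. Class Ia made up 25.4% of control and 52.5% of CKO type I neurons, and class Ic 33% and 18.0%, in the pools. Within classes the 6 genes went different ways, as follows.

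Pou4f1 was higher in CKO in classes Ia and Ib, and not in Ic or in II, where both pools were near 0. In class Ia it averaged 0.0801 (0.0677 to 0.0941) in CKO, from 148 UMIs, and 0.00851 in control, from 8 UMIs, a ratio of summed UMIs of 11 (5.45 to 26). Of the 148 UMIs, 106 came from the 105 neurons just above the gate, with Calb2 of 150 to 200, and with the limits of Calb2 and Lypd1 raised to 1.5 times the log2 value went from 0.73 to 0.18. The CKO stretch means were 0.0887, 0.0806 and 0, the last in the 19 Ia neurons of stretch 4, where 3 UMIs would have given 0.0281, and the control means 0.0243 and 0.00419. A Pou4f1 UMI was found in 15.1% of CKO Ia neurons and in 3.31% of control Ia neurons, beside 0.658% of CKO and 1.68% of control class II neurons, the class with the least Pou4f1. Median depths were 50506 and 48726 UMIs in Ia and 27102 and 25326 in II, and with every cell thinned to 10000 UMIs the Ia shares were 5.47% and 0.826%. In class Ib Pou4f1 averaged 0.332 (0.296 to 0.371) in CKO against 0.162 (0.142 to 0.184) in control, log2 0.72 and a ratio of 2.29 (1.93 to 2.72). CKO stretches 1 and 3, at 0.393 and 0.394, lay above the control stretches at 0.221 and 0.116, and stretch 4 lay between these at 0.169. The log2 value was 0.43 without control stretch 5 and 0.48 and 0.56 with the class limits at 0.5 and 1.5 times, all under 1.5-fold. In class Ic the level was 1.03 (0.945 to 1.11) against 1.17, log2 -0.18, and the stretches overlapped.

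Rxrg in its own class was nearly the same in both pools, 0.466 (0.436 to 0.497) in CKO and 0.507 (0.466 to 0.551) in control class Ia, with a ratio of 0.961 (0.863 to 1.07). The log2 value there was -0.10, but it ranged from -0.46 to 0.077 with 1 stretch left out at a time. Class Ib had 0.114 and 0.113, a ratio of 0.997 (0.754 to 1.31). In class Ic, where control was nearly empty, CKO held 22 UMIs in 132 neurons and control 5 in 314, means of 0.0393 (0.0247 to 0.0596) and 0.00706 and a ratio of 8.92 (3.30 to 30.1). The CKO means in Ic were 0.0432, 0.111 and 0 in stretches 1, 3 and 4, and the control means 0 and 0.0172, so here too stretch 4 was nearer the control stretches. With 3 UMIs the zeros would have read 0.0126 in stretch 4 and 0.00493 in stretch 2. Class II had 0.628 and 0.565, a ratio of 1.14 (0.934 to 1.39), but the direction turned with the stretches, with log2 0.13 in all, -0.44 without stretch 3, -0.24 without stretch 2 and 0.50 without stretch 1.

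Mef2c was lower in CKO in classes Ia and Ib, by amounts that varied with the stretches and gates, and close in Ic and II. In class Ia it averaged 0.142 (0.126 to 0.160) in CKO and 0.281 (0.251 to 0.313) in control, log2 -0.65 and a ratio of 0.499 (0.423 to 0.589). The stretch means were 0.102, 0.177 and 0.134 in CKO and 0.18 and 0.308 in control. All CKO means lay below both control means, but 0.177 nearly met 0.18, and the log2 value was -0.48 without CKO stretch 1 or with the class limits at 1.5 times, and -0.21 without control stretch 5. In class Ib the means were 0.346 (0.308 to 0.388) and 0.548 (0.510 to 0.587), log2 -0.54, with 0.198 and 0.315 in CKO stretches 1 and 3, 0.592 in stretch 4, and 0.520 and 0.570 in control. In Ic the ratio was 0.913 (0.810 to 1.03) and in II 0.993 (0.835 to 1.18). In Ib the log2 value was -0.27 without CKO stretch 1, -0.87 without stretch 4, and -0.0085 and -0.81 with the class limits at 0.5 and 1.5 times. In Ic it was -0.34 without stretch 4.

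Zbtb20 was lower in CKO class Ia, 0.283 (0.259 to 0.308) against 0.492 (0.452 to 0.536), log2 -0.63 and a ratio of 0.576 (0.510 to 0.652). The CKO stretches had 0.241, 0.299 and 0.471 and the control stretches 0.388 and 0.521, so stretch 4 again lay within the control range, and the log2 value was -0.52 without CKO stretch 1, -0.35 without control stretch 5 and -0.43 in neurons poor in glial RNA. In Ib, Ic and II its log2 values were -0.23, -0.23 and -0.20. Casz1 had -0.29 in Ia and -0.26 in Ib, with ratios of 0.805 (0.721 to 0.899) and 0.776 (0.697 to 0.863), 0.05 in Ic and -0.12 in II. With 1 stretch left out at a time, the Ib value ranged from -0.42 to -0.028 for Casz1 and from -0.43 to 0.079 for Zbtb20. Eya1 had -0.14, 0.16, -0.05 and -0.25 in Ia, Ib, Ic and II, and its II value ranged from -0.53 to -0.039 with 1 stretch left out. In class Ia 2 of the 5 members at a mean of 0.2 or more, Mef2c and Zbtb20, were at least 1.5-fold apart, where 0.549% of genes were, and Pou4f1 was below that mean in both pools. In class Ib 1 of 5, Pou4f1, was past 1.5-fold beside 1.12% of genes, and 2, with Mef2c, without stretch 4 beside 2.05%. Without control stretch 2 Mef2c was past it too, at -0.59. In class Ic none of 5 was past it, beside 1.34% of genes, and in class II none of 4, beside 0.947%.

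**Figure D2:**
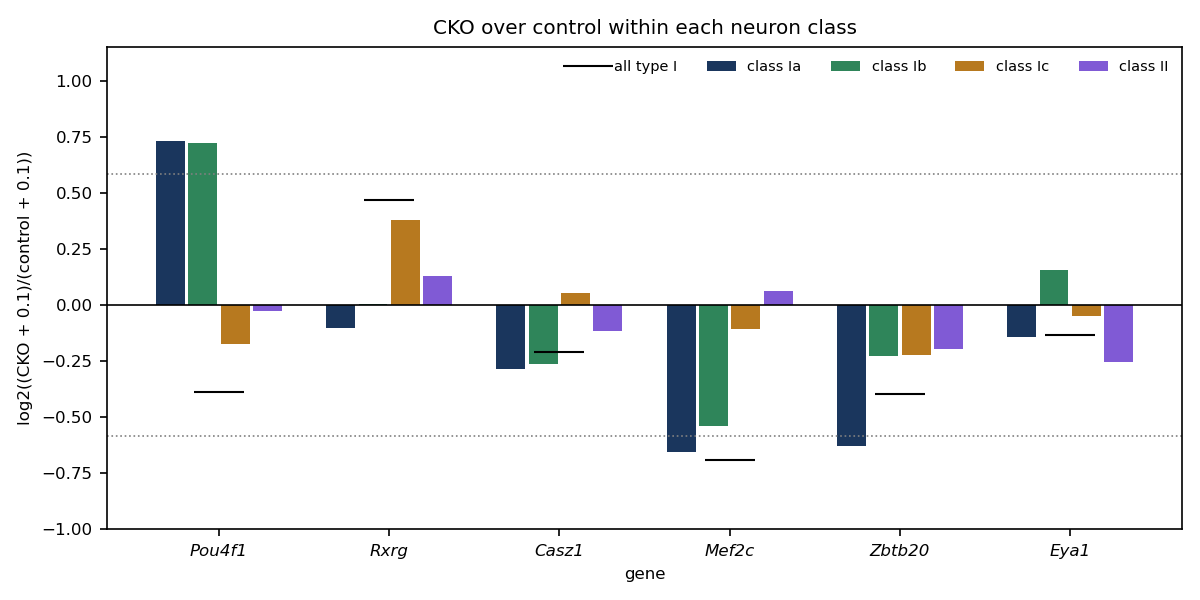
CKO over control for the 6 genes, as log2((CKO + 0.1)/(control + 0.1)) of mean UMIs per 10000 UMIs (vertical axis), in classes Ia, Ib, Ic and II (coloured bars) and in all type I neurons (black dashes). Dotted lines mark 1.5-fold either way: Pou4f1 stands at 0.73 and 0.72 in Ia and Ib although its value over all type I neurons is -0.39, and Rxrg at -0.10 in Ia although it is 0.47 over all type I neurons.

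Along the Calb2 level the genes changed at different points. Just under the Ia gate, at Calb2 of 100 to 150, Mef2c averaged 0.554 in 51 control neurons (102 UMIs) and 0.162 in 89 CKO neurons (63 UMIs), and just above it, at 150 to 200, 0.363 and 0.131. At the low end, at 10 to 50, the Mef2c means were 0.627 and 0.643, and at the high end, at 200 to 300 and above 300, they were 0.255 and 0.142, and 0.273 and 0.169. In the pools the gap was thus widest at the middle levels of Calb2 and smaller above. Each bin pools the stretches of a genotype. CKO stretch 4 gave 59 of the 216 Ib neurons but 19 of the 384 Ia neurons. Its share may therefore change along the Calb2 level, and its part in these values was not tested. Pou4f1 fell with Calb2 in control, from 0.233 at 10 to 50 to 0.0636 at 100 to 150 and 0.0194 at 150 to 200. In CKO it did not fall up to the gate, with 0.302, 0.338 and 0.36 in the 3 bins from 10 to 150. Above the gate it fell, to 0.205 at 150 to 200, 0.0396 at 200 to 300 and 0 UMIs above that. Rxrg went up with Calb2 in both genotypes, from 0.0878 to 0.599 in control and from 0.0399 to 0.747 in CKO between the lowest and the highest bin drawn. Among the neurons just inside the Ic gate, with Lypd1 of 3 to 9, Pou4f1 averaged 0.758 in 16 control and 0.760 in 27 CKO neurons, and just outside, with Lypd1 of 1 to 3, 0.398 in 21 and 0.837 in 12.

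**Figure D3:**
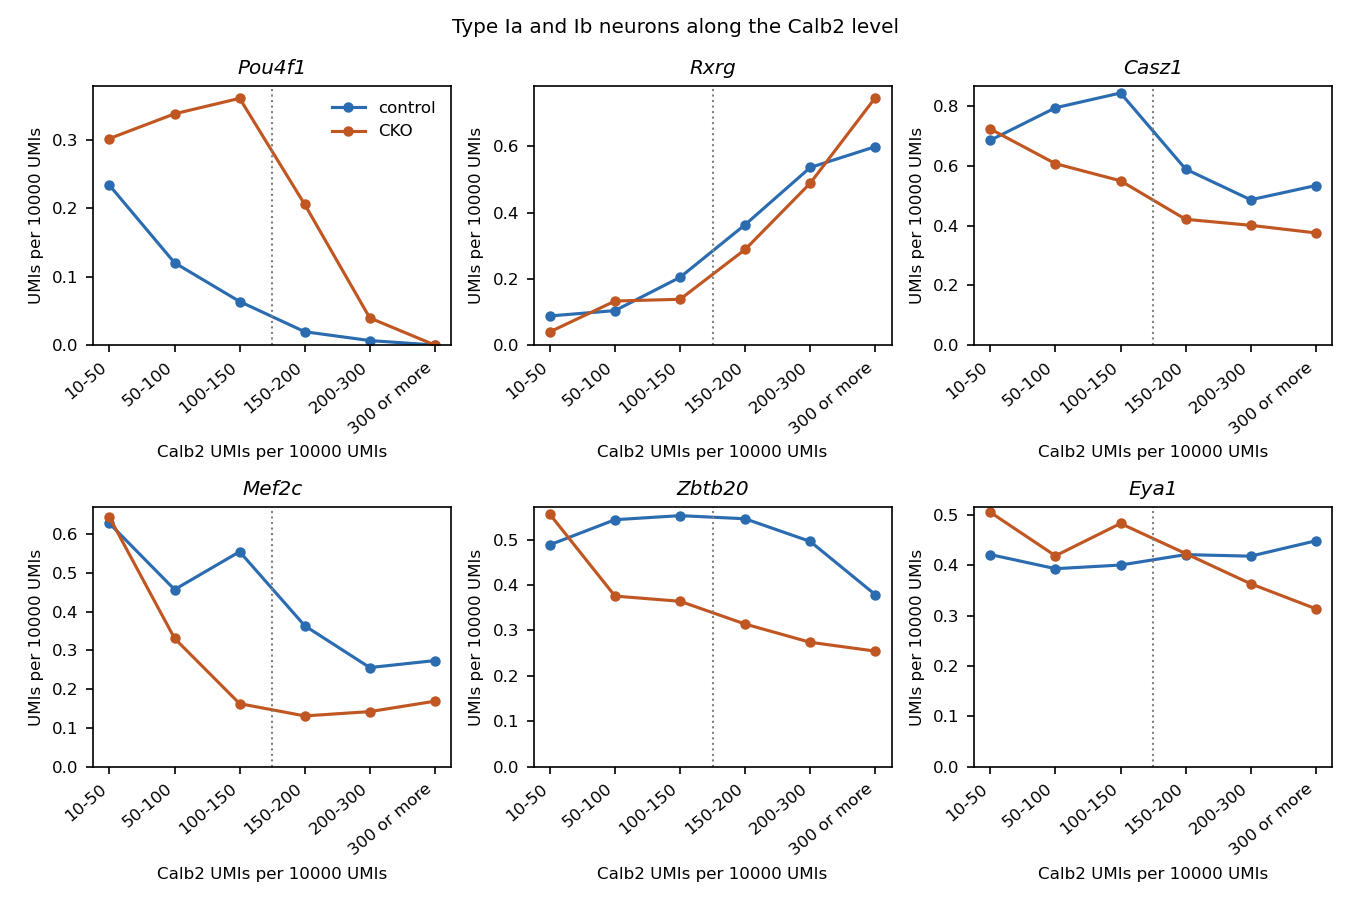
Mean level of the 6 genes (UMIs per 10000 UMIs, vertical axes from 0) in class Ia and Ib neurons binned by their Calb2 level (horizontal axis, UMIs per 10000 UMIs), control in blue and CKO in orange. The dotted line is the gate between Ib and Ia at 150, and bins below 10, with 8 control and 4 CKO neurons, are left out: at 100 to 150 Mef2c is 0.554 in control and 0.162 in CKO, and Pou4f1 0.0636 and 0.36.

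Within the Calb2-high class Ia, the members differed between CKO neurons with Runx1 at 0.5 or more, called Runx1-high here, and those below 0.5, called Runx1-low. The limit is a cut in a level: Runx1-low CKO Ia neurons still averaged 0.109 of Runx1, and Runx1-high ones 2.32. In CKO 268 of 384 Ia neurons were Runx1-high (69.8%, 64.9 to 74.3), and in control 31 of 242 (12.8%, 8.87 to 17.7). The Runx1-high CKO neurons were 133 of stretch 1 and 135 of stretch 3, and none of the 19 of stretch 4. Pou4f1 averaged 0.114 (0.0963 to 0.134) in Runx1-high CKO Ia neurons, from 147 UMIs, and 0.00181 in the 116 Runx1-low ones, from 1 UMI, so nearly all Pou4f1 of CKO class Ia sat in Runx1-high neurons. In stretches 1 and 3 apart, the level was 0.111 and 0.117 in Runx1-high neurons, and 0 and 0.00333 in Runx1-low ones. Control Ia neurons had 0.0326 if Runx1-high, from 3 UMIs, and 0.00497 if Runx1-low, from 5 UMIs, a ratio of 4.64 (0.720 to 23.8).

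Mef2c was low in the Runx1-high CKO neurons, at 0.0889 (0.0739 to 0.106) against 0.264 (0.224 to 0.311) in Runx1-low ones, log2 -0.95 and a ratio of 0.363 (0.283 to 0.464). The Runx1-high neurons of stretches 1 and 3 had 0.0683 and 0.109, and the Runx1-low ones 0.233, 0.321 and, in stretch 4, 0.134. The control values were 0.370 (0.272 to 0.492) in Runx1-high and 0.268 (0.237 to 0.301) in Runx1-low neurons, and the 9 and 22 Runx1-high neurons of stretches 2 and 5 lay far apart, at 0.107 and 0.478. Rxrg was 0.364 (0.332 to 0.398) in Runx1-high and 0.700 (0.634 to 0.772) in Runx1-low CKO neurons, log2 -0.79, with 0.307 and 0.420 against 0.611 and 0.790 in stretches 1 and 3. In control Rxrg was 0.574 (0.444 to 0.730) and 0.497 (0.454 to 0.543), log2 0.17, but with the Runx1 limit at 1, which left 11 Runx1-high neurons, the value was -0.97, the direction seen in CKO. Casz1 (0.373 and 0.472), Zbtb20 (0.256 and 0.345) and Eya1 (0.355 and 0.418) were lower in Runx1-high CKO neurons too, by log2 -0.27, -0.32 and -0.19. Of the 5 members at a mean of 0.2 or more, 2 were past 1.5-fold in CKO, Mef2c and Rxrg, both lower in Runx1-high neurons, beside 0.475% of genes. In control none was, beside 0.916%, at the limit of 0.5, and at a limit of 1 Rxrg and Casz1 were, Casz1 at 0.65. Without stretch 3 the CKO values were -0.77 for Rxrg and -0.82 for Mef2c, whose means were then under 0.2.

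Other measures moved with this split, and their part in the result was not tested. The Runx1-high CKO Ia neurons had less Calb2, 226 against 264, and more Calb1, 2.58 against 0.319, while median depth (50869.5 and 49427.5 UMIs) and the median summed level of glial genes (20.9 and 22.4) were close. Among neurons with Calb2 of 200 to 300, the 159 Runx1-high CKO neurons still had less Mef2c than the 73 Runx1-low ones, 0.0796 (0.0618 to 0.101) against 0.277 (0.225 to 0.337), and less Rxrg, 0.404 (0.361 to 0.45) against 0.674 (0.591 to 0.765). Pou4f1 there was 0.0565 and 0.00288, the last from 1 UMI. When both Runx1 and the members were read from 10000 UMIs per cell, 0 members were past 1.5-fold, with log2 -0.12 for Mef2c and -0.44 for Rxrg. With only the member counts thinned and the split kept, an alternative added after seeing the data, the values were -0.61 and -0.76.

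Set against control neurons on the same side of the Runx1 limit, Runx1-low CKO Ia neurons had Mef2c at 0.264 against 0.268 (ratio 0.928, 0.755 to 1.14), Rxrg at 0.700 against 0.497 (ratio 1.44, 1.25 to 1.64) and Zbtb20 at 0.345 against 0.507 (ratio 0.674, 0.566 to 0.798). None of the members was past 1.5-fold there, beside 0.218% of genes, and without control stretch 5 the log2 value of Rxrg went from 0.42 to 0.15. Runx1-high CKO Ia neurons had Mef2c at 0.0889 against 0.370 in the 31 Runx1-high control neurons (ratio 0.255, 0.181 to 0.365, log2 -1.32) and Casz1 at 0.373 against 0.614 (0.656, 0.512 to 0.850, log2 -0.59), 2 of 5 members past 1.5-fold beside 1.98% of genes. These values rest on control stretch 5: without it, with 9 Runx1-high control neurons left, Mef2c stood at -0.13, Casz1 at -0.42 and Zbtb20 at 0.21 in place of -0.46. Whether the genotype difference itself differed between the sides was not tested.

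**Figure D4:**
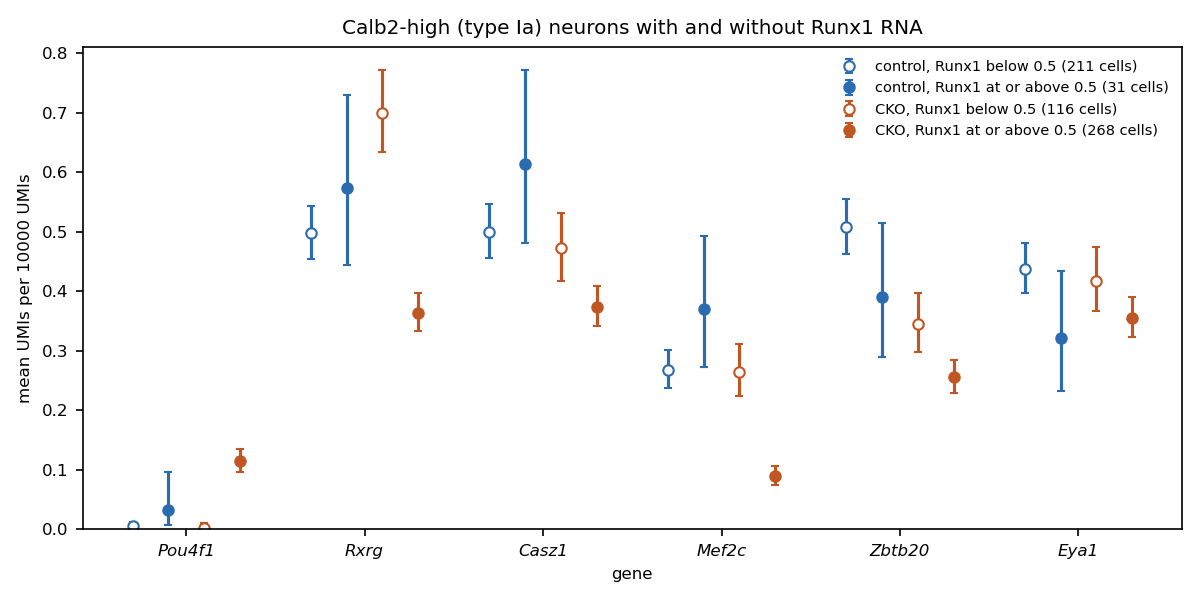
Mean UMIs per 10000 UMIs (vertical axis from 0) of the 6 genes in class Ia neurons with Runx1 at 0.5 or more (filled) or below (open), control in blue and CKO in orange, with exact 95% intervals for counting error. In CKO the filled points lie at 0.114 for Pou4f1 and 0.0889 for Mef2c and the open points at 0.00181 and 0.264.

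In class Ib few neurons were Runx1-low, 40 of 395 in control and 15 of 216 in CKO, with mean Runx1 of 0.183 and 0.107. There Pou4f1 was higher in Runx1-high neurons, 0.174 against 0.051 in control and 0.349 against 0.105 in CKO. Rxrg was lower, 0.0941 against 0.284 and 0.0986 against 0.314. Zbtb20 was lower too, 0.512 against 0.603 in control (log2 -0.20) and 0.410 against 0.705 in CKO (log2 -0.66). The Pou4f1 values of Runx1-low neurons rest on 6 and 5 UMIs. These neurons were shallower, with median depths of 27660.5 and 24915 UMIs against 38130 and 42652. Their median summed level of glial genes was higher, 34.2 against 28.8 in control and 39.3 against 15.9 in CKO. The part of depth and glial RNA in these differences was not tested. At 10000 UMIs per cell, 5 of 951 control (0.526%, 0.171 to 1.22) and 13 of 732 CKO type I neurons (1.78%, 0.949 to 3.02) held both Pou4f1 and Rxrg, where the product of the shares of each gene was 3.72% and 4.45%. Within classes the shares lay near their products, with 1.01% against 1.59% in control Ib, 1.56% against 1.88% in CKO Ia and 3.03% against 2.32% in CKO Ic. These shares rest on only 4, 6 and 4 neurons, and whether the genes avoid each other within a class was not tested. The genes were chosen by their class levels, so the low overlap over type I neurons is a description. No doublet call was made, and the part of paired droplets in these cells was not tested.

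Relatives of the members were read in the same classes. The second retinoid X receptor Rxrb had 0.521, 0.547 and 0.553 in control Ia, Ib and Ic and 0.525, 0.474 and 0.479 in CKO, and Rxra 0.220, 0.293 and 0.351 against 0.205, 0.251 and 0.3. Mef2a, which belongs to the same MADS box family as Mef2c, had 2.09, 2.16 and 2.33 in control and 1.95, 2.14 and 2.32 in CKO. Pou4f2, a close relative of Pou4f1, had 0.239, 0.301 and 0.195 in control Ia, Ib and Ic and 0.273, 0.282 and 0.187 in CKO, with 0.571 in control class II, where Pou4f1 was almost missing. Eya4 had 0.173, 0.219 and 0.313 in control and 0.173, 0.248 and 0.306 in CKO.

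Listed genes were also counted by pathway in type I neurons, at a mean of 0.2 or more. This left 11 of 28 listed genes of retinoid receptors and their partners, 11 of 25 of Mef2 partners and activity-linked genes, and 2 of 12 of the Eya and Dach network. None of these was 1.5-fold apart between the genotypes, beside 1.05% of all genes, a share at which lists of this size hold few or none. Their medians were -0.05, -0.19 and -0.04. Without stretch 4 the kinase gene Camk2b of the Mef2 list, named after its values were seen, was past it, with 0.301 in CKO and 0.51 in control (log2 -0.61), beside 1.75% of genes.

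The genes most like each member were ranked by Pearson correlation of log2(mean + 0.1) over 20 class-by-stretch sets, among 6321 genes, as a description, since the sets share libraries and depth. Plce1 was closest to Pou4f1 (0.96), followed by Cd164l2, Zak, Pcsk2 and Crim1. Apba2 was closest to Rxrg (0.96) before Fchsd1, Plin2, Dok5 and Ephx4, and Zfpm2 to Casz1 (0.97) before Neb, Fgf10, Kcnk1 and Fez2. Ywhah led for Mef2c (0.93) before Cpne6, Braf, Pdlim7 and Hspb8. No gene came as close to Zbtb20, where Pmpca led with 0.78, or to Eya1, where Satb1 led with 0.80. Between members, Pou4f1 and Rxrg had -0.90, Pou4f1 and Eya1 0.64, Casz1 and Zbtb20 0.61, and Casz1 and Mef2c -0.58.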

How the data were processed

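Single-cell RNA libraries were made from sorted cochlear neurons with the 10x Genomics 3′ assay v3, per the labels' protocols, and Cell Ranger, Seurat and the mm10 build are named, without versions, in the submitters' processing notes. The authors deposited natural log values, ln(1 + 100000 × UMIs / cell total), a unit settled from the values: 100% gave whole UMI counts within a tolerance of 0.01. How cells and genes were chosen is not given in the sources used here. The matrix held 0 mitochondrial genes, and 1 barcode occurs in 2 stretches, so cells were joined by position. The design had provided for a count test if cells could be tied to samples, which was not possible, and no test was made.

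The members and gene lists were chosen with earlier results of these data known. Named genes were the members, their family relatives, the 5 genes most like each member and, from each list, up to 4 genes at least 1.5-fold apart between CKO and control type I neurons. Some results for genes of these lists are not reported here. Genes were counted at a mean of 0.2 or more in either set, and log2 values are log2((first + 0.1)/(second + 0.1)). Ratios are of summed UMIs, with exact conditional binomial intervals. Other intervals are exact Poisson and, for shares, Clopper-Pearson at 95%. They cover counting error only, and a count of 0 was read against 3 UMIs. Thinning drew 10000 UMIs per cell (seed 7). Glial RNA was the sum over Schwann and satellite glia genes without S100b, which 99.7% of control type I neurons held. Other lists could be read only in part: of 6 macrophage genes only Csf1r was in the matrix, with 0 in type I neurons, and of 3 endothelial genes none. Of 3 fibroblast genes 2 were in the matrix, with Col1a2 at 0.877 in control and 0.855 in CKO type I neurons. Of 4 hair and supporting cell genes 2 were, with Sox2 at 0.215 and 0.213. The part of such RNA in the results was not tested. The scripts ran under Python 3.11.15, numpy 2.4.6, pandas 2.3.3 and scipy 1.17.1, and were tested on simulated data. Alternatives were the pseudocount, summed UMIs, thinning, equal class weights, class limits at 0.5 and 1.5 times, Runx1 limits of 0.25 and 1, cells with under 5 glial UMIs per 10000, and leaving out each stretch.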

Additional observations from a re-analysis of the deposited data

How the results depend on the processing

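Over the alternatives run, no value that was past 1.5-fold as reported changed its direction, while Rxrg in the control class Ia split, at 0.17, went to -0.97 with a Runx1 limit of 1. No paired analysis was possible because the cells carry a genotype and no sample or replicate number. Equal weights for the type I classes moved the CKO over control log2 values of type I neurons to 0.082 for Pou4f1, -0.014 for Rxrg, -0.35 for Mef2c and -0.015 for Eya1, and the members past 1.5-fold from 1 to 0. A pseudocount of 0.01 gave 0.65 for Rxrg, -0.84 for Mef2c, 2 members, and 44 genes higher and 61 lower, against 29 and 40. Cells poor in glial RNA gave -0.55 for Pou4f1 and 1 member in class Ia in place of 2. The fixed glial list with S100b left 5 control and 6 CKO type I neurons and was not run, and the list without it was chosen after seeing the data, as were the stretches left out within classes and within the sides of the Runx1 limit and the thinning with the split kept. Class limits at 1.5 times left 1 member in Ia, and at 0.5 times 0 in Ib and 0.93 for Mef2c between control Ic and Ia (1.19 as reported). Thinning both Runx1 and members left 0 of 2 members in the CKO class Ia split, and thinning the members alone left 2. The cause was not tested. Leaving out 1 stretch at a time gave, in type I neurons, -0.79 to 0.013 for Pou4f1, 0.15 to 0.73 for Rxrg, -0.34 to -0.021 for Casz1, -0.99 to -0.47 for Mef2c, -0.54 to -0.18 for Zbtb20 and -0.19 to -0.07 for Eya1. It gave 0 to 3 members in type I, 0 to 2 in Ia, 0 to 2 in Ib and 1 to 2 in the Runx1 split. Pou4f1 in Ia and Rxrg in Ic rest on few control UMIs, 8 and 5, so the intervals of their ratios are wide.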

Other observations

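Among the other regulators listed, Maf, a bZIP factor gene named after its values were seen, was graded over the control type I classes, with 3.73 in Ia, 2.15 in Ib and 1.27 in Ic. CKO had 3.52, 2.28 and 1.44, in the same order.

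In class Ic, listed genes were counted at a mean of 0.2 or more. At least 1.5-fold higher in CKO were Rarb, 1 of 12 such retinoid receptor and partner genes, and Zfhx3 and Id4, 2 of 46 such sensory transcription factors. They were named after their values were seen. At least 1.5-fold lower there were 1 of the 46 and 0 of the 12. Of all genes 1.34% were 1.5-fold apart there in either direction. The retinoic acid receptor gene Rarb stood at 0.0856 in control and 0.271 in CKO class Ic (a ratio of 3.02, 2.35 to 3.90), with stretch means of 0.077 and 0.098 in control and 0.483, 0.315 and 0.0683 in CKO. The homeobox zinc finger gene Zfhx3 stood at 0.571 and 1.01, with stretch means of 0.512 and 0.656 in control and 1.13, 1.35 and 0.745 in CKO. Id4, an inhibitor of bHLH factors, stood at 0.151 and 0.289, and in class II at 0.373 and 0.684.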
